A study of Homo sapiens with 18 samples.

Results

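The histone demethylase KDM1A (LSD1) and the genes of the CoREST corepressor complex that carries it were followed through RNA sequencing of prostate cancer cells in which KDM1A had been depleted. The genes were chosen by name, as 9 of the 60675 genes counted: KDM1A itself, its relative KDM1B, the CoREST scaffolds RCOR1, RCOR2 and RCOR3, the deacetylases HDAC1 and HDAC2, and the accessory subunits PHF21A and HMG20B. All 9 were counted in each of 18 libraries and all 9 passed the filter on low counts. The question was whether the partner genes change in RNA level when KDM1A is depleted.

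KDM1A removes mono- and dimethyl groups from H3K4, a mark of enhancers and active promoters, and on nucleosomes it works with an RCOR scaffold, whose SANT domains tie it to HDAC1 or HDAC2, so that deacetylation and demethylation are coupled. PHF21A (BHC80) reads unmethylated H3K4 and HMG20B (BRAF35) is an HMG-box DNA-binding subunit, while KDM1B is a paralogue that acts outside CoREST. In the prostate KDM1A is known both as a corepressor and as a coactivator of the androgen receptor.

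LNCaP is an androgen-responsive prostate cancer cell line and C4-2 (LNCaP:C42 in the labels) is its castration-resistant derivative. Each line had 3 groups of 3 libraries. In the siScr vehicle and siScr R1881 groups the cells received a pool of non-targeting siRNAs and either vehicle or the synthetic androgen R1881 (1 nM for 72 h). Incubation with the siRNAs also lasted 72 h. In the dual knockdown group the cells received siRNA pools against KDM1A and against KDM7A, another histone demethylase, with the same R1881 treatment. All groups were grown in phenol red-free medium with hormone-depleted serum and transfected with the same reagent. KDM1A was never depleted without KDM7A in these libraries, so the part of each siRNA pool cannot be told apart, and dual knockdown with vehicle was not analysed here. The sources give replicates without stating that they came from separate cultures, so p-values measure the spread between these libraries, which may be technical.

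The titles of the 3 C4-2 vehicle libraries name LNCaP:C42, but their source and cell line fields name LNCaP. They were grouped by title. Of 1036 genes with a called difference between the R1881-treated lines and a log2 fold change (log2FC) beyond 3 in size, these libraries lay on the C4-2 side for 899 to 951, and the LNCaP vehicle libraries for 118 to 136. Total counts ran from 3182604, in C4-2 vehicle replicate 3, to 20154243, with a median of 18117641. C4-2 dual knockdown replicate 1 stood apart from its group, with a chi-square per gene of 17.4 and 15.3 against the other 2 libraries, which gave 3.57 between them. C4-2 vehicle replicate 3 stood apart likewise (18.6 and 18.3, against 5.41). All 10 luminal prostate markers averaged at least 1 CPM (counts scaled to library size). The 3 basal markers summed to at most 1.6 CPM and the 4 neuroendocrine markers to at most 3.8 CPM. The 3 leukocyte markers summed to at most 3.52 CPM, with the highest sums, 2.04 to 3.52 CPM, in the C4-2 vehicle group. The 4 fibroblast markers summed to as much as 36.3 CPM, mostly COL1A1 (6.96 to 36.3 CPM). The 3 endothelial markers summed to as much as 20.8 CPM, mostly VWF (4.95 to 20.8 CPM).

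The upstream windows of 3 of the genes are shown, with KDM1A as the target. HMG20B was the partner called higher by edgeR under dual knockdown in both lines, and PHF21A a partner called lower with R1881 in both. The HMG20B calls, and the PHF21A call in C4-2, depended on settings or libraries, as given below. RCOR2 had the largest R1881 log2FC of the partners (−2.05 in LNCaP, −1.28 in C4-2), but no promoter entry was found for it. Each window runs from 250 bases before to 50 bases after a RefSeq start (GRCh38.p14), 5′ to 3′, with matches in capitals. For KDM1A the window is chr1:23019218-23019517 (plus strand), for HMG20B chr19:3572694-3572993 (plus strand) and for PHF21A, at the most upstream of 3 starts, chr11:46121405-46121704 (minus strand).
KDM1A: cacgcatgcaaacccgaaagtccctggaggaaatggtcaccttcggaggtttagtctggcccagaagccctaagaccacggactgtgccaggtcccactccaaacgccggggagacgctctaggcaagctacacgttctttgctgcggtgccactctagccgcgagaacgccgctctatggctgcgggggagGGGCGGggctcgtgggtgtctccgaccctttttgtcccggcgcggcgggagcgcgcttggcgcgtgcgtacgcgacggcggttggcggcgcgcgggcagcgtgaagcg
HMG20B: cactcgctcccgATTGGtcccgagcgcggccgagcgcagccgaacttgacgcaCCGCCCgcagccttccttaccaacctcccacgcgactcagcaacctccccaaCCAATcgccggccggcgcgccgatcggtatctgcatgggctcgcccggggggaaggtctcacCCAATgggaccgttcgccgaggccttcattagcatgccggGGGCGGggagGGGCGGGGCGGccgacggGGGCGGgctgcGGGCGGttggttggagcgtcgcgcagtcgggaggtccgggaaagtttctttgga
PHF21A: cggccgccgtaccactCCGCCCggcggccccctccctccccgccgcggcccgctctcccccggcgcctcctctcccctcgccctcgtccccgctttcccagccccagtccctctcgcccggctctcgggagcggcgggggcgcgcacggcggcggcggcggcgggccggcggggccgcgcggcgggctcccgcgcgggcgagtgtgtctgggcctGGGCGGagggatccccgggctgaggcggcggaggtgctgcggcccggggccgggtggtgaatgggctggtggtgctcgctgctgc
The letters searched on both strands were the GC box GGGCGG, held by 45% of 35116 RefSeq promoters of this length, CCAAT (34.6%), the ETS core CCGGAA (17.2%), the NRF1 half-site TGCGCA (8.24%) and the androgen receptor half-site AGAACA (14.8%). The HMG20B window held 6 GC boxes, of which a pair overlap, and 3 CCAAT boxes, that of PHF21A 2 GC boxes and that of KDM1A 1. A table entry was found for 8 of the 9 genes, with 11 windows in all, and AGAACA was in none of the 11. A match is a run of letters, and no binding was measured.

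Compared per length, on the RPKM scale (counts scaled to library size and annotated exonic length), the complex spanned a wide range of levels. In LNCaP siScr R1881 HDAC1 stood highest at 52.1 ± 1.44 RPKM (SD, n = 3), followed by HMG20B at 38.1 ± 3.54, KDM1A at 19.9 ± 0.819 and KDM1B at 16.4 ± 0.965. HDAC2 (14.7 ± 1.2 RPKM) overlapped both KDM1B above it and RCOR1 (13.5 ± 0.0975) below it, and RCOR3 (7.22 ± 0.0751), PHF21A (3.59 ± 0.248) and RCOR2 (0.4 ± 0.0713) followed, each apart from its neighbour. In C4-2 siScr R1881 HDAC1 was again highest (70.4 ± 0.361 RPKM), HMG20B (26.9 ± 0.461) and KDM1A (26.2 ± 0.593) overlapped, and RCOR2 was again lowest (0.554 ± 0.0986). With the longest coding transcript in place of all exons, the order changed in part: HMG20B (65.1 ± 1.12 RPKM) and KDM1A (46.5 ± 1.05) were apart in C4-2, and HDAC2 (23 ± 1.87) stood above KDM1B (19.8 ± 1.16) in LNCaP. Among the scaffolds RCOR1 made up 60.9% to 64.6% of the summed RCOR RPKM as group means, RCOR3 31.2% to 34.2% and RCOR2 1.9% to 6.76%. The order of RCOR1 and RCOR3 depends on the length used too, since with the longest coding transcript RCOR1 had 46.2% to 48.9% and RCOR3 47.4% to 50.8%.

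All 9 genes are plotted library by library, and KDM1A had the widest span, 10-fold between its highest and lowest library, while RCOR2 had the larger coefficient of variation over the 18 (57.1% against 49.2%).

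**Figure D1:**
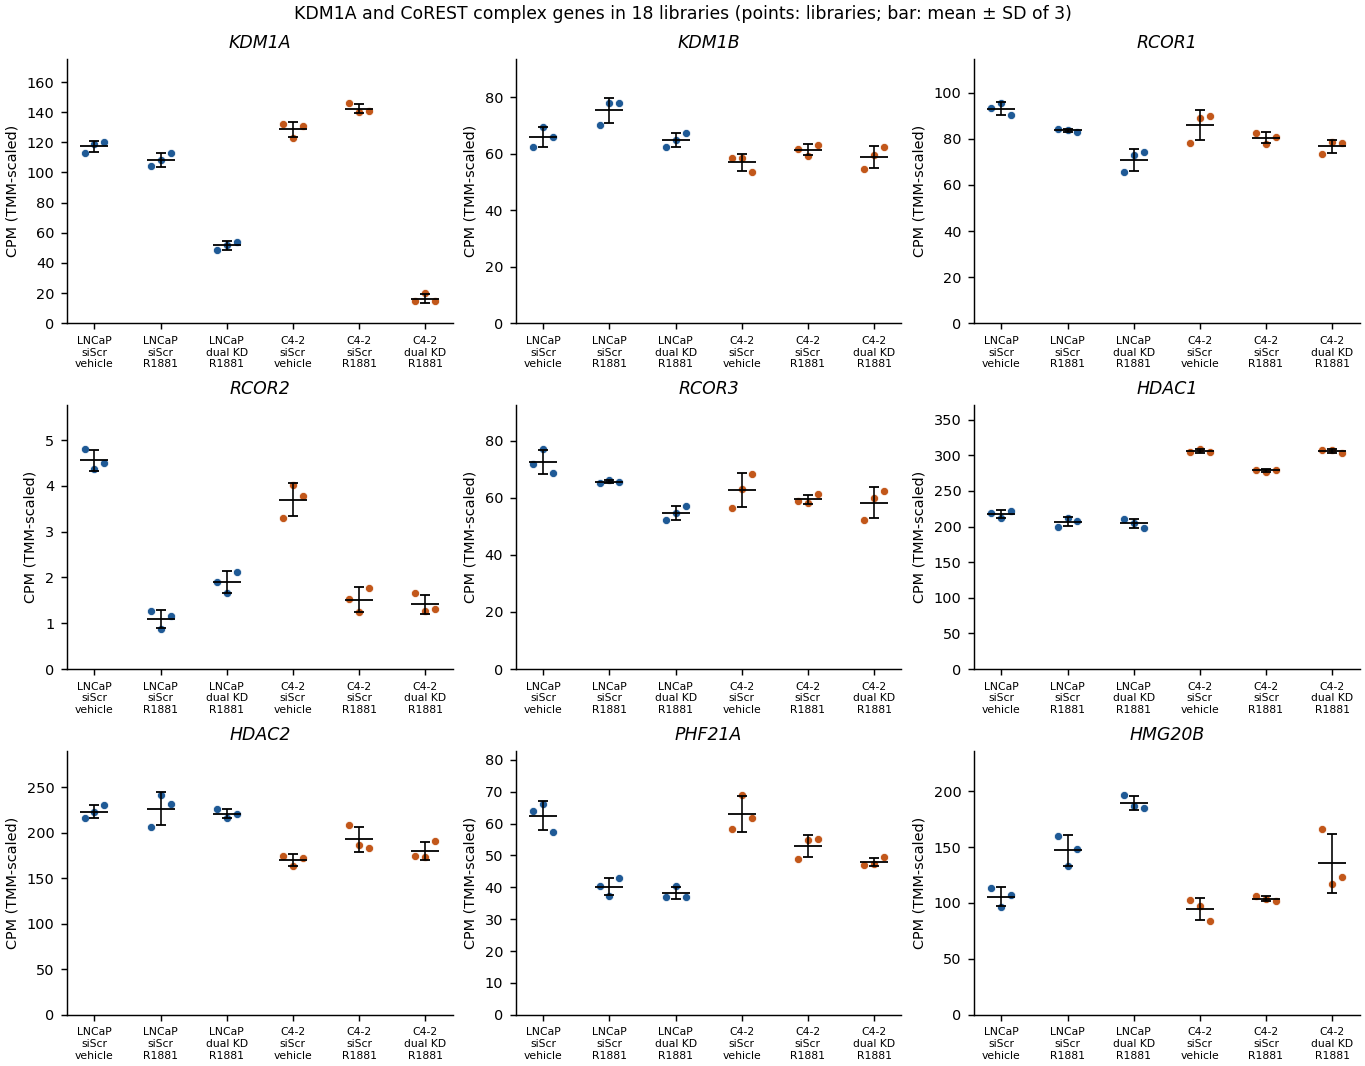
Level of each complex gene (vertical axis, TMM-scaled CPM from 0) in the 6 groups of 3 libraries; points are libraries, blue for LNCaP and orange for C4-2, and the bar with whiskers is the mean ± SD. KDM1A drops to between 48.5 and 54.1 CPM in LNCaP and between 14.6 and 19.9 CPM in C4-2 with dual knockdown (KD), RCOR2 and PHF21A are highest with vehicle, and HDAC1 is higher in C4-2 than in LNCaP.

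The target came first. KDM1A (ENSG00000004487, chr1:23019448-23083689, plus strand, GRCh38) had 104, 108 and 113 CPM in the LNCaP siScr R1881 libraries and 48.5, 52.2 and 54.1 CPM with dual knockdown. In C4-2 it had 146, 140 and 141 CPM before and 14.8, 19.9 and 14.6 CPM after dual knockdown. The groups did not overlap in either line. The mean left was 47.7% in LNCaP and 11.6% in C4-2, and whether this reflects less RNA in every cell or transfection of fewer cells cannot be told apart in bulk RNA.

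In LNCaP the edgeR log2FC of KDM1A was −1.05 ± 0.0628 (SE, adjusted p = 1.42e-07). In C4-2 it was −3.12 ± 0.11 (adjusted p = 9.78e-10). The difference between the lines in this response was itself called (log2FC −2.04 ± 0.121, adjusted p = 2.36e-09), and it was called without any 1 of the 12 libraries. KDM7A, the other siRNA target, fell to 51.7% of its siScr R1881 mean in LNCaP and to 17.6% in C4-2. The deeper depletion in C4-2 thus applied to both targets, and every comparison of partner genes between the lines sets unequal depletion side by side.

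Beside this loss the partner genes moved little in C4-2. In LNCaP their log2FC ranged in size from 0.0038 (HDAC1) to 0.79 (RCOR2). These lay at percentiles 1.17 and 96.4 of size over all genes. A gene was called where the Benjamini-Hochberg adjusted p of edgeR's quasi-likelihood test over all genes was under 0.05. In LNCaP 5 of the 9 genes were called, KDM1A, RCOR1 and RCOR3 lower and RCOR2 and HMG20B higher, against 14.2% of all 17162 genes tested. KDM1A is the siRNA target, so its call was set by the design. It is in every count and median given here, and only the other genes bear on the partners. The LNCaP count was 1 once each library's trend on transcript GC content was removed. It was 2 without siScr R1881 replicate 2 or 3 or dual knockdown replicate 1 or 2. Calls over all genes fell as well, from 2431 to 999 with the GC trend removed. In the leave-outs just named they were 839, 957, 918 and 840, in that order. In C4-2 2 of the 9 were called, KDM1A lower and, as the only partner, HMG20B higher, against 23.5% of 16965. KDM1A alone was called in 4 of the 6 leave-outs there. Without siScr R1881 replicate 1, 2 or 3, calls over all genes went from 3983 to 2768, 2826 and 2482. Without dual knockdown replicate 1 they rose to 4272. With a log2FC of at least 1 in size required as well, KDM1A alone remained in each line, where 0.286% of all genes passed in LNCaP and 3.94% in C4-2. Over the 9 genes the median log2FC was −0.06 in LNCaP and −0.07 in C4-2 (0.00098 and 0.0055 over all genes), and its median size was 0.22 (0.18 over all genes) and 0.11 (0.24).

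By edgeR, HMG20B was the only partner gene called under dual knockdown in both lines, and the LNCaP call was lost without the GC trend. It had 160, 133 and 148 CPM in LNCaP siScr R1881 and 197, 187 and 185 CPM with dual knockdown. In C4-2 it had 106, 104 and 102 CPM, and 166, 117 and 123 CPM with dual knockdown. The groups were apart in both lines, but in C4-2 replicate 1 stood well above the other dual knockdown libraries.

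HMG20B was 1.3-fold higher in each line, with a LNCaP log2FC of 0.38 ± 0.0775 (adjusted p = 0.00586) and a C4-2 log2FC of 0.37 ± 0.109 (adjusted p = 0.0228). Without the GC trend the LNCaP value was 0.0079 (adjusted p = 0.953) and the C4-2 value 0.28 (adjusted p = 0.00108). The call in C4-2 was lost without any 1 of the 3 siScr R1881 libraries and without dual knockdown replicate 1, when the log2FC was 0.21 (adjusted p = 0.0608). The gene (chr19:3572777-3579088, plus strand) shares 369 exonic bases, 9.57% of its exonic length, with MFSD12, which lies on the other strand and whose annotated span contains the window printed above. Counting did not use strand, so reads in the shared stretch cannot be assigned to either gene. MFSD12 was also called higher in LNCaP (log2FC 0.35, adjusted p = 0.0317) and was uncalled in C4-2 (0.15, adjusted p = 0.499), where it too was highest in dual knockdown replicate 1, at 67.7 CPM against 44.7 and 45.9.

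The scaffolds differed in direction in LNCaP. RCOR1, the founding CoREST scaffold, had 84.1, 83.8 and 83 CPM with siScr R1881 and 65.5, 72.9 and 74.2 CPM with dual knockdown. RCOR3 had 65, 66.3 and 65.6 CPM, and then 52.2, 54.5 and 57.1 CPM. Both were lower in every dual knockdown library, by a log2FC of −0.22 ± 0.0638 for RCOR1 (adjusted p = 0.0305) and −0.25 ± 0.0658 for RCOR3 (adjusted p = 0.0216).

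RCOR2, a scaffold best known from stem cells and the developing nervous system, rested on few reads. Its LNCaP counts were 23, 12 and 20 with siScr R1881 and 30, 31 and 40 with dual knockdown, or 1.26, 0.879 and 1.15 CPM and then 1.9, 1.66 and 2.13 CPM. The groups did not overlap and the log2FC was 0.79 ± 0.246 (adjusted p = 0.0416). The RCOR2 call was lost with DESeq2 (adjusted p = 0.103), with no filter on low counts (0.112) and with only the groups compared (0.0577). RCOR1 lost its call with no filter too (adjusted p = 0.0508). These scaffold calls were fragile when the 6 libraries were left out in turn. RCOR1 kept its call only without dual knockdown replicate 3 and RCOR2 only without siScr R1881 replicate 1. RCOR3 kept its call when either of these 2 was left out. Calls over all genes fell in these leave-outs too, except without siScr R1881 replicate 1.

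In C4-2, where KDM1A fell furthest, the scaffolds overlapped between groups. RCOR1 had 82.5, 77.8 and 80.9 CPM with siScr R1881 and 73.6, 78.5 and 78 CPM with dual knockdown, a log2FC of −0.07 (95% interval −0.24 to 0.10, adjusted p = 0.559). RCOR3, at 59, 58.2 and 61.3 CPM and then 52.1, 59.9 and 62.5 CPM, had a log2FC of −0.04 (−0.24 to 0.17, adjusted p = 0.826). RCOR2, at 1.54, 1.24 and 1.77 CPM and then 1.66, 1.26 and 1.31 CPM, had one of −0.11 (−0.65 to 0.44, adjusted p = 0.811). The difference between the lines was not called for RCOR1 (0.17, adjusted p = 0.269), RCOR2 (−0.87, adjusted p = 0.0883) or RCOR3 (0.23, adjusted p = 0.187). Without C4-2 dual knockdown replicate 1 it was called for RCOR2 (adjusted p = 0.0432) and RCOR3 (0.32, adjusted p = 0.0289).

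The deacetylases were uncalled by edgeR in both lines, though DESeq2 called HDAC1 higher in C4-2. HDAC1 had 200, 212 and 208 CPM in LNCaP siScr R1881 and 211, 205 and 198 CPM with dual knockdown, with a log2FC of 0.0038 and an interval of −0.11 to 0.12. HDAC2 had 206, 242 and 232 CPM and then 226, 216 and 221 CPM, with an interval of −0.14 to 0.11. Both genes overlapped between groups. In C4-2 HDAC1 had 280, 277 and 279 CPM and then 307, 308 and 303 CPM, so that every dual knockdown library was higher, yet the change was uncalled (log2FC 0.13, interval −0.0089 to 0.27, adjusted p = 0.171). DESeq2 called it at 0.13 (adjusted p = 0.0313) and also called its difference between the lines (0.15, adjusted p = 0.0243), which edgeR did not (adjusted p = 0.206). HDAC2, with 208, 187 and 183 CPM and then 175, 173 and 191 CPM, overlapped there too (−0.10, interval −0.27 to 0.06, adjusted p = 0.379).

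KDM1B, the paralogue, was not called in either line. In LNCaP it had 70.2, 77.9 and 77.9 CPM with siScr R1881 and 62.5, 64.9 and 67.3 CPM with dual knockdown, all lower, with a log2FC of −0.20 and an interval of −0.33 to −0.06 that missed the threshold after adjustment (adjusted p = 0.0562). It was called lower with DESeq2 and in 3 of the other 6 alternative settings. In C4-2 it had 61.5, 59.3 and 63.2 CPM and then 54.7, 59.6 and 62.4 CPM, overlapping, with a log2FC of −0.06 (interval −0.24 to 0.11). PHF21A had 40.5, 37.3 and 42.8 CPM in LNCaP siScr R1881 and 37.1, 40.5 and 37.1 CPM with dual knockdown, and in C4-2 48.9, 54.9 and 55.2 CPM and then 47, 47.4 and 49.5 CPM. The groups overlapped in both lines, with a log2FC of −0.06 (interval −0.23 to 0.12) in LNCaP and −0.15 (interval −0.34 to 0.04) in C4-2.

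**Figure D2:**
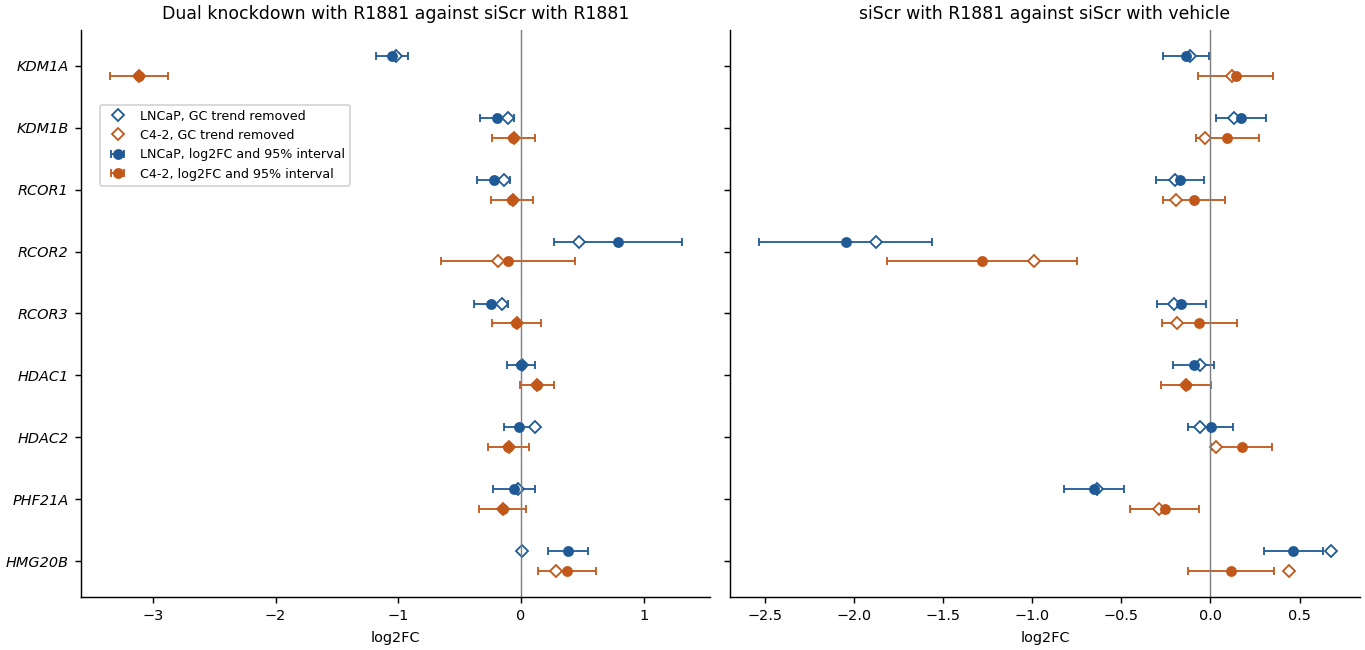
Fitted log2FC (horizontal axis) of each complex gene for dual knockdown against siScr, both with R1881 (left), and for R1881 against vehicle in siScr cells (right). Filled circles with bars are edgeR values with 95% intervals, open diamonds the values with each library's trend on transcript GC content removed, blue for LNCaP and orange for C4-2; KDM1A lies at −1.05 and −3.12 in the left panel, and the HMG20B value of 0.38 in LNCaP moves to 0.0079 without the GC trend.

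Ratios of RNA within each library put the same values side by side. Those with KDM1A, the siRNA target, as denominator rise with its depletion by construction and are a description. KDM1B RPKM divided by KDM1A RPKM was 0.824 ± 0.0288 in LNCaP siScr R1881 and 1.49 ± 0.0308 with dual knockdown. In C4-2 it went from 0.511 ± 0.0167 to 4.3 ± 0.753, with library values of 4.36, 3.52 and 5.03. KDM1A thus went from the more abundant to the less abundant of the 2 LSD1 family transcripts in both lines on this scale, while with longest transcript lengths its share of the 2 in LNCaP ended at 49.7% ± 0.516 against 50.3% ± 0.516 for KDM1B.

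With dual knockdown the ratio of RCOR1 to KDM1A was 1.77-fold its siScr R1881 value in LNCaP and 8.29-fold in C4-2, and that of KDM1B to KDM1A 1.81-fold and 8.34-fold. HDAC2 to HDAC1 was 0.281 in LNCaP siScr R1881 and 0.278 with dual knockdown (exact two-sided permutation p = 0.9), and 0.177 and 0.151 in C4-2 (exact permutation p = 0.1, the smallest that 3 against 3 libraries allow).

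**Figure D3:**
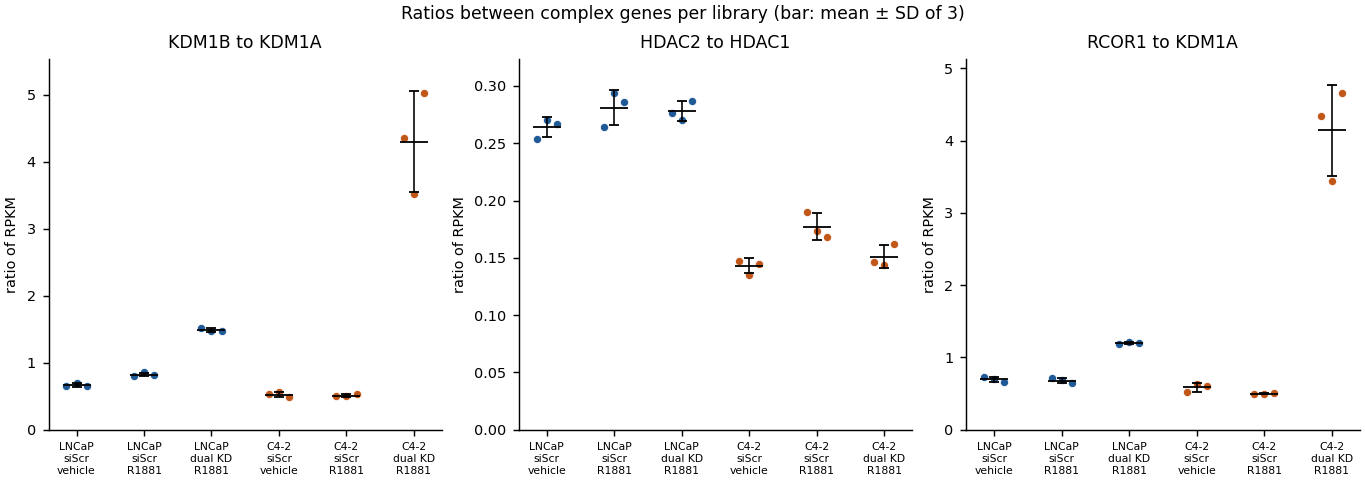
Ratios of RPKM between pairs of complex genes (vertical axes, linear from 0) in the 6 groups; points are libraries, blue for LNCaP and orange for C4-2, and the bar with whiskers is the mean ± SD of 3. KDM1B to KDM1A reaches 1.49 in LNCaP and 4.3 in C4-2 with dual knockdown (KD), RCOR1 to KDM1A reaches 1.2 and 4.14, and HDAC2 to HDAC1 separates the lines.

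The log2FC of dual knockdown in LNCaP varied with the base composition of the transcripts. Over all genes tested, the median log2FC there ran from −0.15 for transcripts under 40% GC to 0.32 for those of 60% GC or more, and in C4-2 from −0.04 to 0.07. HMG20B transcripts are 64.6% GC and those of RCOR2 63.2%, while RCOR3 (43.1%), KDM1B (43.7%) and RCOR1 (44.5%) are poor in GC. HDAC2, the poorest of the 9 in GC (39.7%), was at −0.02 and uncalled in LNCaP, where genes under 40% GC had a median of −0.15.

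With each library's GC trend removed, a step added after the data were seen, KDM1A was the only complex gene called in LNCaP (log2FC −1.02). RCOR2 then stood at 0.47 (0.273), RCOR1 at −0.14 (0.17) and RCOR3 at −0.15 (0.112, adjusted p in each case), beside the HMG20B value given above. The number of all genes called there went from 2431 to 999. In C4-2 KDM1A (−3.11) and HMG20B kept their calls, and MFSD12 was at 0.06 (adjusted p = 0.584). The difference between the lines for HMG20B, 0.02 in the model without this step (adjusted p = 0.974), was called at 0.28 with it (adjusted p = 0.0108). What produced the GC trend was not tested.

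**Figure D4:**
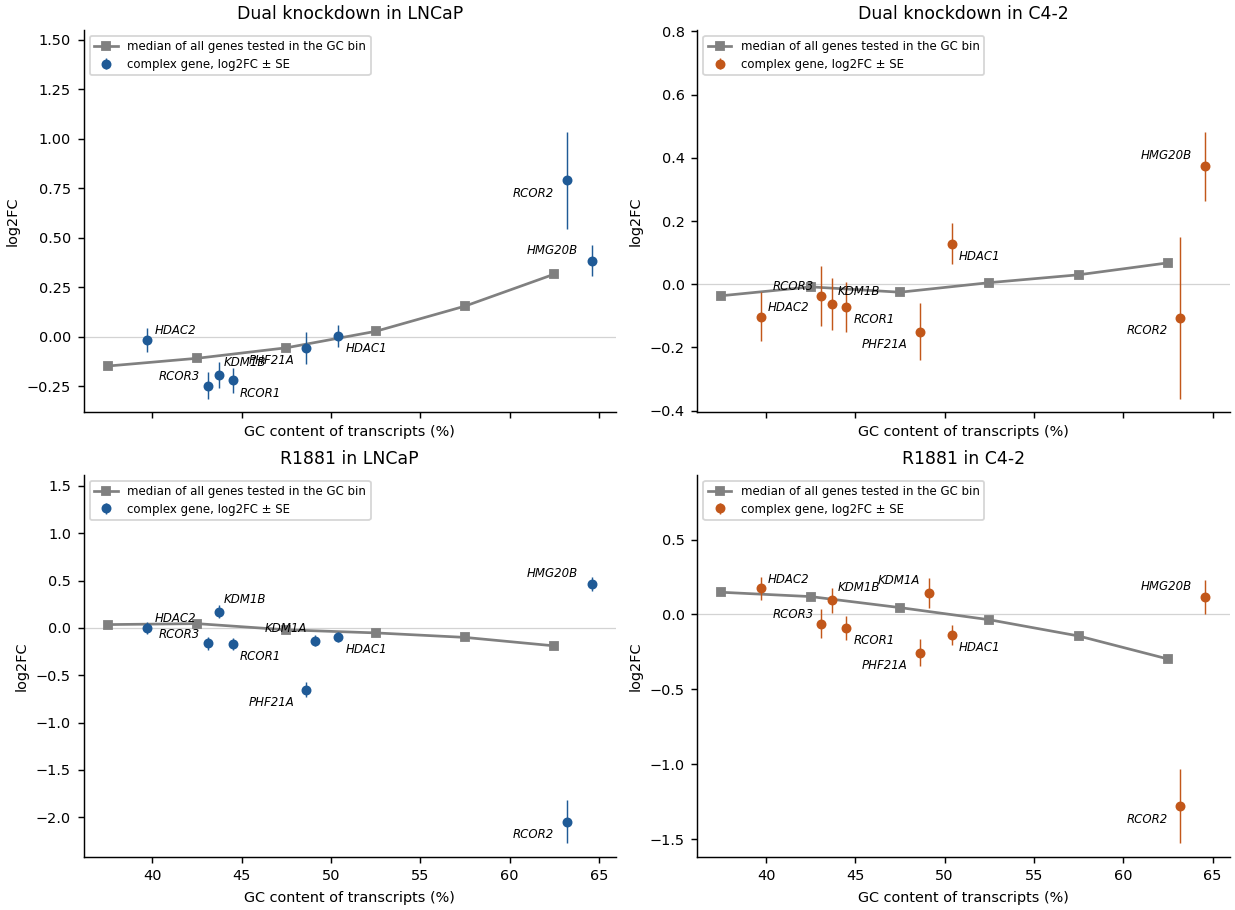
Fitted log2FC of the complex genes (coloured points, ± SE) against the GC content of their transcripts, with the median over all genes tested in 6 GC bins (grey squares, the outer bins being under 40% and from 60%). KDM1A, at −1.05 and −3.12, lies outside the range of the 2 dual knockdown panels and is not drawn there; HMG20B and RCOR2 sit at the GC-rich end, where the grey line is at 0.32 in LNCaP dual knockdown and at −0.30 with R1881 in C4-2.

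The androgen comparison asks how the ligand alone moved the same genes. The siScr R1881 libraries are the treated group here, against vehicle, and the reference for dual knockdown, so the 2 sets of values share samples, which enter with opposite sign. Of the 9 genes, R1881 called 5 in LNCaP (KDM1B and HMG20B higher; RCOR1, RCOR2 and PHF21A lower), where 46.6% of all genes were called. In C4-2 it called 2 (RCOR2 and PHF21A, both lower), where 32.8% were. RCOR2 alone among the 9 also passed the 2-fold rule, in both lines, as did 12.3% of all genes in LNCaP and 9.07% in C4-2. The median size of log2FC over the 9 genes was 0.17 in LNCaP and 0.14 in C4-2, below the 0.32 and 0.29 of all genes.

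RCOR2 had 4.81, 4.36 and 4.5 CPM in LNCaP vehicle and 1.26, 0.879 and 1.15 CPM with R1881. In C4-2 it had 3.31, 4.01 and 3.79 CPM with vehicle, from counts of 64, 70 and 13, and 1.54, 1.24 and 1.77 CPM with R1881. Every R1881 library was lower in both lines. The log2FC was −2.05 ± 0.23 (adjusted p = 1.34e-06) in LNCaP and −1.28 ± 0.248 (adjusted p = 0.00116) in C4-2, and both calls held without any 1 library and with the GC trend removed (−1.87 and −0.99). Its share of the RCOR RPKM fell from 6.76% ± 0.448 to 1.9% ± 0.338 in LNCaP and, as means, from 6.13% to 2.75% in C4-2. The LNCaP dual knockdown libraries, at 3.83% ± 0.457, lay between those with vehicle and those with R1881 alone.

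PHF21A had 64, 66.2 and 57.3 CPM in LNCaP vehicle and 40.5, 37.3 and 42.8 CPM with R1881. In C4-2 it had 58.2, 69.1 and 61.8 CPM, and 48.9, 54.9 and 55.2 CPM with R1881. The groups were apart in both lines, with a log2FC of −0.65 ± 0.0796 (adjusted p = 3.58e-06) in LNCaP and −0.26 ± 0.0906 (adjusted p = 0.0427) in C4-2. The C4-2 call was kept in 1 of 6 leave-outs, that of C4-2 vehicle replicate 1, and the difference between the lines was called (0.38 ± 0.116, adjusted p = 0.0297). PHF21A was the only one of the 9 called for a difference in R1881 response, where 14.0% of all genes were, in the edgeR model as reported. With no filter on low counts HMG20B was called in its place. HMG20B was called beside PHF21A with a replicate block, with the GC trend removed (RCOR2 too) and with only the groups compared (KDM1A too). For the difference in knockdown response, where 10.9% of all genes were called, the edgeR model as reported called KDM1A alone of the 9. Other settings added HDAC1 (DESeq2), HMG20B (GC trend removed) or RCOR2 and RCOR3 (without C4-2 dual knockdown replicate 1). The PHF21A difference held in 5 of 12 leave-outs, and was lost without LNCaP vehicle replicate 1 or 2, LNCaP R1881 replicate 1 or 2, C4-2 vehicle replicate 1 or C4-2 R1881 replicate 2 or 3 (lowest value 0.31).

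HMG20B rose with R1881 in LNCaP, from 113, 96.2 and 107 CPM to 160, 133 and 148 CPM (log2FC 0.46 ± 0.0788, adjusted p = 0.000123). In C4-2 it had 103, 97.2 and 84.2 CPM with vehicle and 106, 104 and 102 CPM with R1881, overlapping and uncalled (0.12, adjusted p = 0.466). With the GC trend removed, HMG20B was called higher in both lines, at 0.68 in LNCaP and 0.44 in C4-2. Its difference between the lines was uncalled in the edgeR model as reported (−0.36, adjusted p = 0.118). KDM1A itself had 113, 119 and 120 CPM with vehicle in LNCaP and 132, 123 and 131 CPM in C4-2. Its R1881 log2FC was uncalled in LNCaP at −0.14 (adjusted p = 0.0791) and in C4-2 at 0.14 (adjusted p = 0.298). HDAC1 (−0.09 and −0.14) and HDAC2 (0.0015 and 0.17) were uncalled in both lines in the model as reported. For HDAC1 every R1881 library was nevertheless below every vehicle library in both lines. With the GC trend removed, HDAC1, RCOR1 and RCOR3 were called lower in C4-2, beside RCOR2 and PHF21A. In LNCaP that step added RCOR3 as lower (−0.21, adjusted p = 0.00424). In LNCaP RCOR1 was lower (−0.17, adjusted p = 0.0352) and KDM1B higher (0.17, adjusted p = 0.0413), calls kept in 1 of 6 leave-outs (LNCaP vehicle replicate 3) and in 2 of 6 (LNCaP vehicle replicate 2 and R1881 replicate 1). The RCOR1 call was also lost with RLE factors (adjusted p = 0.0608), DESeq2 (0.111), no filter (0.222), a replicate block (0.0544) and only the groups compared (0.0608). That of KDM1B was lost with a filter on mean CPM (adjusted p = 0.0504) and only the groups compared (0.0575).

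Between the lines, 6 of the 9 genes were called with R1881 (58.3% of all 18684 genes were) and 4 with vehicle (58.9%). HDAC1 was higher in C4-2 under both, by 0.43 ± 0.0512 with R1881 (adjusted p = 2.43e-07) and 0.49 ± 0.0517 with vehicle (adjusted p = 4.58e-08). Its siScr libraries ran from 277 to 309 CPM in C4-2 and from 200 to 222 CPM in LNCaP, without overlap. HDAC2 moved the other way, by −0.24 ± 0.0683 with R1881 (adjusted p = 0.00525) and −0.40 ± 0.0696 with vehicle (adjusted p = 4.66e-05). Without the GC trend HDAC2 was at −0.09 with R1881, uncalled (adjusted p = 0.191), and at −0.18 with vehicle (adjusted p = 0.0162). The HDAC2 to HDAC1 ratio was 0.628 of the LNCaP value with R1881 and 0.541 of it with vehicle, each with an exact permutation p of 0.1.

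KDM1B was lower in C4-2 under both treatments (−0.30 with R1881, adjusted p = 0.000867, and −0.20 with vehicle, adjusted p = 0.0189). KDM1A (0.39, adjusted p = 0.000234) and PHF21A (0.40, adjusted p = 0.000259) were called higher, and HMG20B lower (−0.50, adjusted p = 0.000302), with R1881. Their vehicle values of 0.13, 0.02 and −0.14 were uncalled, but without the GC trend KDM1A (0.21, adjusted p = 0.0121) and HMG20B (−0.42, adjusted p = 5.57e-07) were called with vehicle too, as was RCOR2 (−0.57, adjusted p = 0.0167). RCOR3 was called lower with vehicle (−0.23, adjusted p = 0.0156). Without the GC trend the vehicle values of KDM1B (−0.02, adjusted p = 0.901) and RCOR3 (−0.05, adjusted p = 0.449) were uncalled. All 6 calls with R1881 held without any 1 library, and with vehicle those of HDAC1 and HDAC2 did. The vehicle calls of KDM1B and RCOR3 were each lost without LNCaP vehicle replicate 2, and also without C4-2 vehicle replicate 3 for KDM1B and C4-2 vehicle replicate 1 for RCOR3.

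Across the 18 libraries the log2 CPM of KDM7A, depleted in the same libraries, followed KDM1A with a Pearson r of 0.817, RCOR1 with 0.544, RCOR3 with 0.458 and HMG20B with −0.481. Over the 12 siScr libraries alone RCOR1 was at −0.406, RCOR3 at −0.583 and HMG20B at −0.689, while HDAC1 was at 0.805. The signs for RCOR1 and RCOR3 therefore depended on whether the dual knockdown libraries were included. The points share treatment groups and cell line, so these are descriptions. Of 18683 other genes, those most like KDM1A over 18 libraries were CBX5 (0.928), which encodes the heterochromatin protein HP1α, TIGD1 (0.924), EIF4EBP2 (0.922), EHHADH (0.918) and SNN (0.918). FLOT1 was the lowest (−0.943). This ranking includes the depleted libraries: CBX5 averaged 331 to 342 CPM in the siScr groups, and 269 (LNCaP) and 222 CPM (C4-2) with dual knockdown. Over the 12 siScr libraries alone other genes stood highest, led by EXOSC1 (0.976).

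Factors that associate with or recruit the complex were taken as further lists. Of 10 CoREST-associated factors, 1 was called lower under dual knockdown in LNCaP and 2 higher in C4-2, near the 14.2% and 23.5% of all genes called in the 2 lines. The medians were −0.05 and −0.02 beside the 0.00098 and 0.0055 of all genes. The zinc-finger factor ZNF217 had 342, 365 and 346 CPM in LNCaP siScr R1881 and 288, 301 and 305 CPM with dual knockdown, and in C4-2 331, 321 and 343 CPM and then 458, 503 and 502 CPM. It was lower in every dual knockdown library in LNCaP (−0.22, adjusted p = 0.0171) and higher in every one in C4-2 (0.55, adjusted p = 0.000218), and the lines differed (0.79, adjusted p = 7.25e-06). With the GC trend removed the LNCaP value of ZNF217 was −0.13 (adjusted p = 0.125) and its other calls held. MIER1 was the other factor called higher in C4-2 (0.46, adjusted p = 0.00617). Its difference between the lines was called too (0.51, adjusted p = 0.00822). Both MIER1 calls held with the GC trend removed, at 0.48 and 0.36.

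Among 10 recruiting factors, mostly SNAG-domain or zinc-finger repressors, 6 were tested in LNCaP, with 1 called higher and 2 lower, and 7 in C4-2, with 1 called lower, where 14.2% and 23.5% of all genes were called. Their medians were −0.12 and 0.15. REST, which brings CoREST to neuronal genes, was called lower in LNCaP (−0.27, adjusted p = 0.0298), and TRIM28 higher (0.24, adjusted p = 0.0424). The other gene called lower in LNCaP, ZEB1, passed the 2-fold rule but averaged 0.591 CPM over the 18 libraries, and it is named here after its values were seen. Without the GC trend none of the 3 was called, with REST at −0.19 and TRIM28 at −0.02. SNAI2 (SLUG), a SNAG-domain repressor, was the factor called in C4-2, at 19.6, 16.3 and 18.8 CPM with siScr R1881 and 8.4, 7.41 and 7.67 CPM with dual knockdown (log2FC −1.23, adjusted p = 3.00e-05). In LNCaP it had 12, 14.4 and 10.7 CPM, and 11, 11.7 and 11.6 CPM with dual knockdown. The difference between the lines was called (−1.12, adjusted p = 0.00197). With vehicle SNAI2 had counts of 2, 13 and 12 in LNCaP and 4, 2 and 0 in C4-2, so its RNA was near the limit of detection without R1881.

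Of 16 neuronal genes that REST and CoREST are known to repress, 7 passed the count filter in LNCaP and 8 in C4-2. In LNCaP 0 were called in either direction by edgeR or by DESeq2 and 0 had an unadjusted p under 0.05, with a median log2FC of 0.16. In C4-2 2 were called lower by both tools (median over the 8 of 0.06), and 0 higher by either tool or at an unadjusted p under 0.05. VGF, a neurosecretory protein gene, had 12.5, 10.8 and 10.8 CPM in C4-2 siScr R1881 and 6.47, 3.84 and 2.74 CPM with dual knockdown (−1.39, adjusted p = 0.000375), and CELSR3 was the other (−0.66, adjusted p = 0.00266). The remaining 9 and 8 genes of the list were too low to test.

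HDAC1 and HDAC2 also serve complexes without KDM1A or shared with it, whose other subunits were counted for comparison. Of 11 NuRD subunits, 1 was higher and 1 lower in LNCaP and 2 higher and 1 lower in C4-2 under dual knockdown (medians −0.0084 and −0.02). In LNCaP 14.2% of all genes were called and in C4-2 23.5%, and the counts of the lists given here are to be read against these shares. MBD3 was higher in both lines (0.54 and 0.38) and RBBP4 lower in both (−0.19 and −0.42), and without the GC trend the 2 LNCaP values, 0.15 and −0.11, were uncalled. In C4-2 MBD3 had 62.8, 65.3 and 64.1 CPM with siScr R1881 and 105, 79 and 67.4 CPM with dual knockdown (adjusted p = 0.0401). Its highest value was thus in dual knockdown replicate 1, which stood apart from its group. Leave-outs were not run for the list genes. The 11 SIN3 subunits gave 1 higher and 2 lower in LNCaP and 1 higher and 3 lower in C4-2, with medians of −0.03 and −0.19. Among those called were BRMS1 (0.41) and ARID4B (−0.36) in LNCaP, and ING1 (−0.55) and SUDS3 (0.34) in C4-2. Without the GC trend BRMS1 was at 0.17 and uncalled (adjusted p = 0.419). Of 6 NCoR and SMRT subunits NCOR1 was lower in LNCaP (−0.20) and higher in C4-2 (0.24), a difference that was called (0.46, adjusted p = 0.00245), although the LNCaP value without the GC trend was −0.14 and uncalled (adjusted p = 0.109), and TBL1X was lower in both (−0.19 and −0.38), with medians of −0.07 and 0.08. The 4 MiDAC and MIER subunits gave 0 calls in LNCaP by edgeR and by DESeq2, with 2 at an unadjusted p under 0.05, and 2 lower in C4-2, MIER2 (−0.43) and ELMSAN1 (−0.25), with medians of 0.09 and −0.23.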

How the data were processed

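RNA was extracted with Qiagen RNeasy kits and sequenced as paired poly(A) libraries. The authors trimmed reads with Trim Galore and cutadapt, aligned them to GRCh38 with STAR and counted fragments per Ensembl gene with featureCounts v1.5.0-p1, without a strand option; the deposited values are these raw counts per gene, from 18 libraries in 6 groups of 3, with totals of 3182604 to 20154243. Unstranded counting cannot separate overlapping genes, as for HMG20B and MFSD12. HDAC1 has 2 processed pseudogenes, which took at most 7 counts in any library.

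Genes were identified by Ensembl ID through GENCODE names. edgeR 4.0.16 (R 4.3.3) was run with TMM factors, a filter of 10 counts in the smallest group and 15 in total, and quasi-likelihood tests with Benjamini-Hochberg adjustment over all genes tested: 17162 in LNCaP, 16965 in C4-2 (9 libraries each) and 18684 in both lines (18 libraries, for line and difference-between-lines tests). CPM values used factors over all 18 libraries. RPKM values used the exonic length, or the longest coding transcript. Ratios were compared by exact two-sided permutation over 20 splits. Intervals are 95% and include the spread between libraries.

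The study's added rule of a log2FC of at least 1 was applied as an alternative. Others were DESeq2 1.42.0, RLE factors, other filters, only the groups compared, a replicate block and leaving out each library. Removal of a lowess trend of log2 CPM on transcript GC (span 0.3; 99.2% of LNCaP genes had a GC value) was added after the data were seen. The fits were tested on simulated data. List genes named were, under dual knockdown in each line, the 2 called genes per list with the largest log2FC in size and a mean of at least 1 CPM. ZEB1 was named besides. List genes called with R1881, or between the lines in siScr cells, are not given here. Added were the 5 most correlated with KDM1A, the lowest in correlation, and the highest over the siScr libraries. MFSD12 and KDM7A were named as overlapping and co-targeted genes. The complex genes and the lists were chosen with earlier results of these data known. Replicates of 1 group differed by more than sampling noise (chi-square per gene of 2.56 to 18.6 over 18 pairs), so none was a repeat deposit. The sources name the vehicle differently in the culture and RNA methods, so it is called vehicle here.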

Additional observations from a re-analysis of the deposited data

Results flagged for a closer look

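The response of KDM1A to dual knockdown differed between the lines, with a log2FC difference of −2.04 (C4-2 minus LNCaP) by the interaction term of the edgeR model. The response of PHF21A to R1881 also differed, by 0.38, the fall being larger in LNCaP. Groups of 3 libraries are too small for the outlier test used with larger groups.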

How the results depend on the processing

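With a log2FC of at least 1 in size required, the number of complex genes called was 1 under dual knockdown in each line, 1 with R1881 in each line, 0 between the lines under either treatment and 0 for the difference in R1881 response. Of all genes, 49 passed under dual knockdown in LNCaP and 669 in C4-2, and 2110 and 1539 with R1881. Of 18684 genes, 4443 passed between the lines with R1881, 4530 with vehicle and 808 for the difference in R1881 response. With the GC trend removed it was 1 under dual knockdown in LNCaP, 6 with R1881 in C4-2, 5 between the lines with R1881, 5 with vehicle (without KDM1B and RCOR3, with KDM1A, RCOR2 and HMG20B added), 2 for the difference in knockdown response and 3 for that in R1881 response. Over all genes this step gave 999 of 17033 under dual knockdown in LNCaP and 5851 of 16846 with R1881 in C4-2. Of 18531 genes it called 11509 between the lines with R1881 and 11354 with vehicle. For the differences in knockdown and R1881 response it called 2617 and 3596. With no filter it was 3 under dual knockdown in LNCaP and 1 with R1881 in C4-2, where 2509 of 39298 and 6085 of 39389 genes were called. DESeq2 gave 1 with R1881 in C4-2 and 2 for the difference in knockdown response, where it called 5215 of 20954 and 2403 of 13993 genes. A fit to only the groups compared gave 3 with R1881 in LNCaP and 3 for the difference in R1881 response. It called 7373 of 16644 and 2643 of 18138 genes there. The cause of these changes in count was not tested.

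Leaving out each library gave 2 to 5 called under dual knockdown in LNCaP, 1 to 2 in C4-2, 3 to 5 with R1881 in LNCaP, 1 to 2 in C4-2, 6 in every case between the lines with R1881, 2 to 4 with vehicle, 1 to 3 for the difference in knockdown response (3 without C4-2 dual knockdown replicate 1) and 0 to 1 for that in R1881 response. Over all genes the leave-outs called 839 to 2760 under dual knockdown in LNCaP and 2482 to 4272 in C4-2. With R1881 they called 6801 to 7692 in LNCaP and 4002 to 5870 in C4-2. Between the lines they called 9908 to 10110 with R1881 and 9858 to 11086 with vehicle. For the differences in knockdown and R1881 response the ranges were 1272 to 3538 and 1969 to 2578.

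Signs changed for values near 0, none of them called in the model as reported. Under dual knockdown in LNCaP, HDAC1 was −0.013 with RLE factors, −0.012 with DESeq2 and −0.027 to 0.027 over the leave-outs, and HDAC2 was 0.12 without the GC trend and −0.073 to 0.026 over the leave-outs. In C4-2 the leave-outs gave −0.24 to 0.016 for RCOR2 and −0.099 to 0.042 for RCOR3. With R1881 in LNCaP, HDAC2 was −0.0064 with a filter on mean CPM, −0.0603 without the GC trend and −0.027 to 0.066 over the leave-outs. Without the GC trend KDM1B with R1881 in C4-2 was −0.031, and RCOR1 between the lines was 0.0397 with R1881 and 0.038 with vehicle. PHF21A between the lines with vehicle was −0.0039 with the filter on mean CPM and −0.066 to 0.084 over the leave-outs. The difference in knockdown response was −0.12 to 0.0012 for HDAC2 and −0.15 to 0.10 for HMG20B over the leave-outs, and for HMG20B −0.0012 in the blocked model and −0.0023 in that of the compared groups. RCOR1 in the difference in R1881 response was −0.0015 to 0.10. Over the leave-outs the log2 ratio change was −0.092 to 0.014 for KDM1B to KDM1A (R1881, C4-2), −0.062 to 0.015 for HDAC2 to HDAC1 (dual knockdown, LNCaP) and −0.077 to 8.3e-05 for RCOR1 to KDM1A (R1881, LNCaP).

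Replicate numbers did not pair the libraries: over 18 same-numbered pairs the correlation of deviations ran from −0.0735 to 0.0723, with 0 over 0.1. A replicate block gave 2 complex genes for the difference in R1881 response in place of 1, and 4 in place of 5 with R1881 in LNCaP, where RCOR1 was lost (adjusted p = 0.0544). With the block, 2743 of 18684 and 7896 of 17162 genes were called in these comparisons. RCOR2 rests on 12 to 94 counts. Without C4-2 dual knockdown replicate 1, all genes called for the difference in knockdown response went from 2028 to 3538.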
